A study of Homo sapiens with 16 samples.

Results

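BCL11A is the gene of a zinc-finger repressor of fetal globin, and 27 regions of ChIP enrichment lay at it in 4 deposited peak lists that hold 85461 regions in all. A region was a member when its summit, or its midpoint where the list gives no summit, fell within the BCL11A gene or within 100 kb on either side of it on chromosome 2 (hg38). Of the 27 regions, 3 came from the BCL11A list (12911 regions in all), 1 from the list of ZBTB7A in K562 (17331), 13 from the list of ZBTB7A in WT HUDEP-2 cells (36435) and 10 from the list of ZBTB7A in 195C>G HUDEP-2 cells (18784). ChIP-seq locates a protein on DNA by sequencing the fragments that an antibody pulls down.

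BCL11A was pulled down through its V5 tag from HUDEP-2, an immortalised human erythroid progenitor line, carrying an inducible BCL11A-ER-V5 fusion and treated for 24 h with 4-hydroxytamoxifen at 1e-07 M (2 ChIP and 2 control libraries). The regions therefore show where an induced, tagged BCL11A was found, and not the cells' own protein. ZBTB7A was pulled down with 2 named antibodies from K562, an erythroleukaemia line (4 ChIP and 4 control libraries), with no treatment labelled. It was also pulled down from HUDEP-2 cells labelled ΔGγ, which lack the Gγ-globin gene HBG2, either with a WT promoter or with the 195C>G variant (1 ChIP and 1 control library each). WT and 195C>G cells share the ΔGγ deletion, the labels do not say whether either is 1 clone, and neither ΔGγ nor 195C>G is named for the cells of the BCL11A list. The BCL11A and K562 lists each pool replicates and the other lists rest on 1 library each, so no value below has an error between replicates and no p-value is given. Read depths are not given in the files, so the depth is unknown.

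BCL11A silences the fetal γ-globin genes in adult red cells, where it recruits corepressors such as NuRD. Its own transcription in red cells depends on an enhancer within the second intron, made of DNase-hypersensitive sites that are named by their distance in kb from the transcription start (+55, +58 and +62). ZBTB7A, also called LRF, is a second repressor of fetal globin. The ZBTB7A lists thus show where it sits at the gene of another silencer, and the BCL11A list shows the induced BCL11A at its own gene.

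In the deposited RefSeq annotation BCL11A has 3 protein-coding (NM) transcripts that share 1 start, and runs on the minus strand over chr2:60451167-60553498, or 102 kb. Distances are counted from that start and are positive into the gene. The first intron spans 0.283 to 7.197 kb and the second intron spans 7.528 to 84.664 kb, which holds the enhancer. Ranks run from 1, the region of highest score (BCL11A) or signal (WT and 195C>G) as the authors gave them. No value is given for any K562 region, and K562 ranks are the order of the file, which no source used here states to be an order of strength. Ranks and values of different lists are not on 1 scale, so a better rank in one list is not stronger binding there.

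Sequence around 3 of these regions was taken from RefSeq promoter windows (GRCh38.p14), each given as the 250 bases before an annotated start, on the minus strand, 5′ to 3′. Capitals mark the bases inside a region of the named list. The first lies just upstream of the deposited start (chr2:60553655-60553904, capitals: BCL11A list), the second before a start within the first intron (chr2:60550908-60551157, capitals: 195C>G list) and the third before LOC124906010, the gene next downstream (chr2:60439820-60440069, capitals: WT list).
BCL11A start: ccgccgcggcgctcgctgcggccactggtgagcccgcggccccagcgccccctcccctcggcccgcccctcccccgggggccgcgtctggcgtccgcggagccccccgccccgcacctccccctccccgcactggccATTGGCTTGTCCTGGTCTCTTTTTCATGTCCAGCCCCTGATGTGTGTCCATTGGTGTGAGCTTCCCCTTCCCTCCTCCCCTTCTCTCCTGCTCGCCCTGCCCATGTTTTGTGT
BCL11A first-intron start: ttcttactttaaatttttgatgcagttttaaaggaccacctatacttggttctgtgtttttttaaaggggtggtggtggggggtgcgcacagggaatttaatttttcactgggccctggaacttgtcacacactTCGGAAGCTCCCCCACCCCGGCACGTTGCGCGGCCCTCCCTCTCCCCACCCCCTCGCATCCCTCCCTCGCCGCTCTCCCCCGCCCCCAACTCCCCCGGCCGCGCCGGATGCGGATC
LOC124906010 start: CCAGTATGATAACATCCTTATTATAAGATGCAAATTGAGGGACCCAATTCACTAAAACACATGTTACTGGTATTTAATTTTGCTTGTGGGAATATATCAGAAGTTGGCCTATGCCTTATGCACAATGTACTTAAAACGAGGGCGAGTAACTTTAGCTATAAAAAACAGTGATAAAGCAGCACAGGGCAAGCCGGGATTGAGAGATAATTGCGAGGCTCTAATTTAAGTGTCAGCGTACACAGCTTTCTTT

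The window at the start is 72% G and C, against 58.4% for the first-intron window and 38.4% for that of LOC124906010. Of its 250 bases, 113 lay inside a BCL11A region, 240 inside a WT region and 248 inside one of 195C>G. Motifs were searched on both strands: TGACCA, the letters BCL11A recognises in the γ-globin promoters, CCCTTCC, from the C-rich element that ZBTB7A binds there, and TGATAA and AGATAA, forms of the GATA factor site. TGACCA was in none of the 3 windows, and it was in 9.19% of all 35116 promoter windows cut to the same 250 bases. CCCTTCC was found 1 time, in the window at the start, from base 202 counted from the 5′ end, inside the regions of BCL11A, WT and 195C>G alike, and 13.0% of all windows hold it. The LOC124906010 window held TGATAA 2 times (from bases 7 and 169; 6.66% of all windows hold it) and AGATAA 1 time (from base 202; 9.17%). A match is a description of letters and not a binding site. The sequence of the second-intron regions was not used here.

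The 27 regions fell into 9 places, a place being a stretch in which regions of any list overlap. Of these, 3 lay upstream of the start, 2 in the first intron, 3 in the second intron and 1 downstream of the gene. WT had regions in 8 places and 195C>G in 8, of which 7 were shared. BCL11A had regions in 3 places and K562 in 1. No place held all 4 lists, 4 places held 3 lists, 3 held 2 and 2 held 1. No summit or midpoint lay in an exon, the third intron or the fourth intron, although 2 ZBTB7A regions at the start reached into the first exon.

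**Figure D1:**
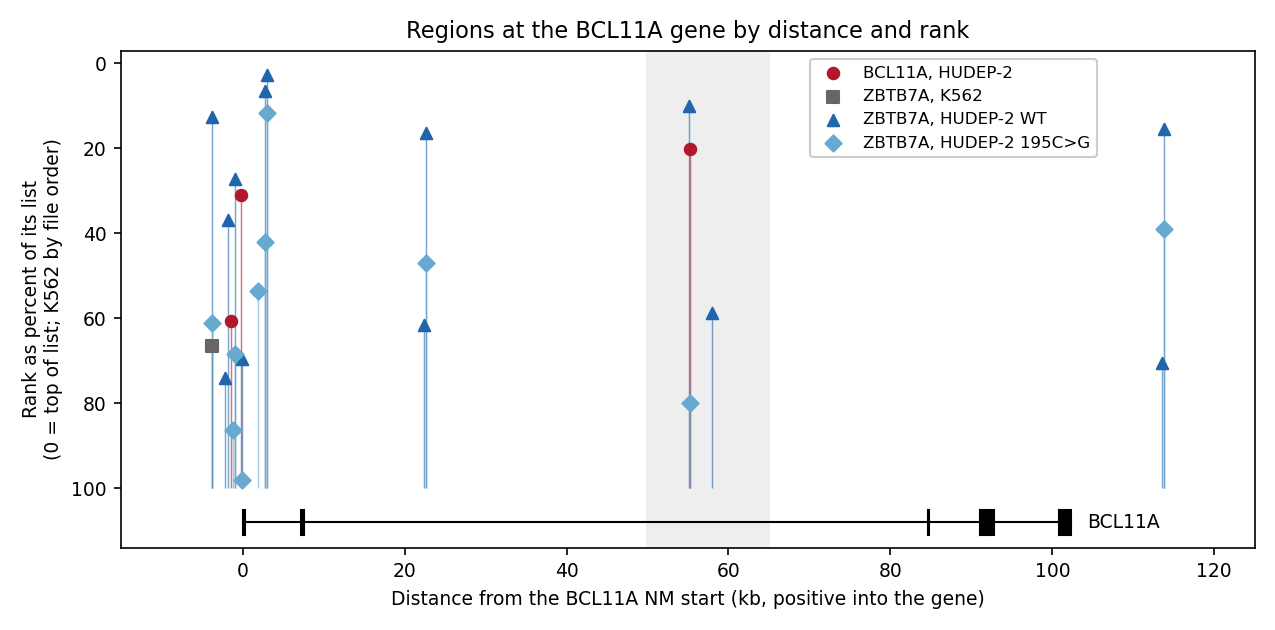
Rank of each region as a percent of its list (0 is the top of the list, by file order for K562) against distance from the BCL11A start in kb, with the exons as black boxes and the 50 to 65 kb stretch of the second intron shaded. Each symbol is 1 region and its stem marks the position. The region nearest the top of its own list is a WT region at 2.971 kb, and regions of 3 lists meet at 55 kb.

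Within the second intron at 50 to 65 kb, BCL11A and ZBTB7A were found at the same place, the +55 site. The BCL11A list had 1 region there, at chr2:60498151-60498319, 55.263 kb from the start, with a score of 61.0 and rank 2601, or 20.1% down the list. This was the best-ranked of its 3 regions at the gene, and the list's median score was 29.4. WT had a region at chr2:60498077-60498720 with its summit at 55.099 kb, a signal of 62.9 and rank 3654 (10.0% down the list). The 195C>G list had one at chr2:60497982-60498581 with its summit at 55.216 kb, a signal of 30.1 and rank 14990 (79.8% down). The median signal was 25.6 in the WT list and 40.0 in the 195C>G list. The +55 region thus stood above its own list's median in WT and below it in 195C>G. The lowest signals of the lists also differed, at 15.0 in WT and 25.7 in 195C>G. The part of that difference in this contrast was not tested.

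The BCL11A region was 169 bp wide and lay wholly within both ZBTB7A regions. Its midpoint was 164 bp from the WT summit and 47 bp from the 195C>G summit, and these summits were 117 bp apart. Regions more than 1 kb from any NM start of the deposited annotation are here called distal. Among these the +55 region stood at 1859 of 23181 in WT, at 9252 of 11789 in 195C>G and at 1602 of 7662 for BCL11A. The −log10 of the false discovery rate was 4.34 in WT and 2.26 in 195C>G. The highest values of these lists were 4.34 and 4.07. The WT maximum is shared by many ranks: the WT region at rank 9864, upstream of the start, also had 4.34.

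The +58 site, best known as the part of the enhancer targeted by therapeutic genome editing, had 1 region in WT. It ran over chr2:60495158-60495801 with its summit at 58.018 kb, a signal of 22.7, a −log10 false discovery rate of 3.18 and rank 21439 of 36435. Its signal was under the list's median, and no region of the other 3 lists lay there. The lowest signal of any region was 15.0 in the WT list but 25.7 in the 195C>G list. The part of that limit in the absence of a 195C>G region at +58 was not tested. No list had a region within 1 kb of +62. K562 had no region in the second intron at all, and between 50 and 65 kb WT counted 2, 195C>G and BCL11A 1 each and K562 0.

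**Figure D2:**
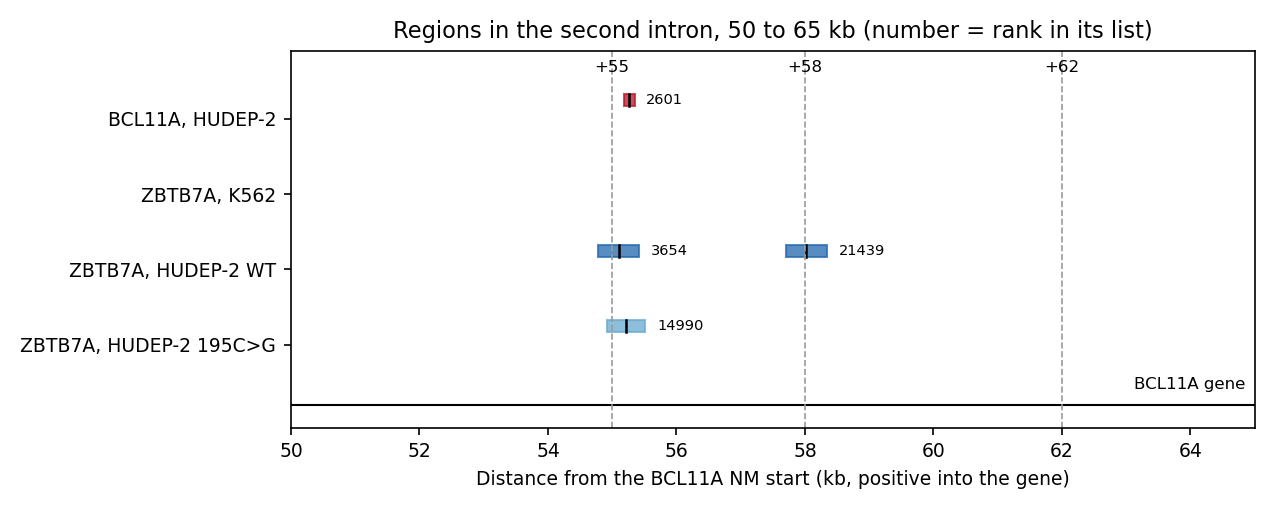
Regions between 50 and 65 kb from the BCL11A start, drawn to scale in kb, with 1 row per list. Bars are regions, black ticks their summits or midpoints, numbers their ranks, and dashed lines the named +55, +58 and +62 sites. BCL11A, WT and 195C>G regions overlap at +55, WT alone has a region at +58, and none lies at +62.

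Elsewhere in the second intron, ZBTB7A had a place at 22.413 to 22.615 kb that BCL11A and K562 lacked. WT had a region at chr2:60530561-60531204 (signal 49.8, rank 5961) and an overlapping weaker one at chr2:60530763-60531406 (signal 21.9, rank 22432). The 195C>G region, chr2:60530592-60531191, had a signal of 41.4 and rank 8804, and its summit was 9 bp from that of the stronger WT region. RefSeq places a further BCL11A start at 24.963 kb. No region lay between this place and +55, a gap of 32.5 kb between WT summits, and none between +58 and the end of the gene.

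For ZBTB7A in HUDEP-2, the best-ranked region at the gene lay in the first intron, in WT and in 195C>G alike. WT had a region at chr2:60550406-60550732, with its summit at 2.971 kb, a signal of 104 and rank 978 (2.68% down the list). It had a second, overlapping region at chr2:60550406-60550793 with its summit at 2.766 kb, a signal of 76.0 and rank 2338. In 195C>G the corresponding regions were chr2:60550421-60550703 (summit at 2.973 kb, signal 79.5, rank 2189) and chr2:60550424-60551023 (summit at 2.774 kb, signal 44.1, rank 7888). The summits of the stronger pair were 2 bp apart. Among distal regions the stronger stood at 513 of 23181 in WT and 1368 of 11789 in 195C>G. They count as distal by the deposited NM starts only, since RefSeq places a further BCL11A start at 2.591 kb, within 1 kb of these summits. The wider 195C>G region reached 116 bases into the first-intron promoter window printed above, which the WT regions did not reach. BCL11A and K562 had no region in the first intron.

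A further 195C>G region in the first intron, chr2:60551325-60551924 (summit at 1.873 kb, signal 38.5, rank 10038), was the only one of the 10 in that list that no WT region overlapped. Over the whole genome 89.3% of 195C>G regions were overlapped by a WT region.

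At the start itself, regions of BCL11A and of ZBTB7A in both HUDEP-2 lists overlapped. The BCL11A region, chr2:60553578-60553767, had its midpoint 174 bp upstream of the start, with a score of 44.3 and rank 3995. The WT region chr2:60553251-60553894 had its summit 75 bp upstream (signal 20.0, rank 25318) and the 195C>G region chr2:60553303-60553902 had its summit 105 bp upstream (signal 26.1, rank 18429). Both ZBTB7A regions stood in the weaker 50% of their lists, and the 195C>G one was 98.1% down its list.

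Between 0.921 and 2.121 kb upstream lay a run of overlapping regions of the same 3 lists. It held 3 WT regions, of which the strongest, chr2:60554151-60554794, had a signal of 37.8 and rank 9864, and the others had ranks 13381 and 26941. It held 2 regions of 195C>G, with signals of 33.2 and 28.5 and ranks 12851 and 16205, and 1 of BCL11A, chr2:60554799-60555168, with a score of 24.5 and rank 7834. The BCL11A region overlapped neither list's strongest ZBTB7A region there. Its midpoint was 510 bp from the summit of the WT one.

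The only K562 region, chr2:60557158-60557425, had its midpoint 3.793 kb upstream of the start, at rank 11512 (66.4% down the list). ZBTB7A was found at this place in all its 3 lists, with the WT summit at 3.777 kb (signal 56.8, rank 4581) and the 195C>G summit at 3.805 kb (signal 35.5, rank 11463). The K562 midpoint was 16 bp from the WT summit and 12 bp from that of 195C>G. BCL11A had no region there. This was the place farthest upstream. Beyond it the next WT and K562 regions lay 202.7 kb upstream of the start, while those of BCL11A and 195C>G lay 328 and 327 kb upstream.

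**Figure D3:**
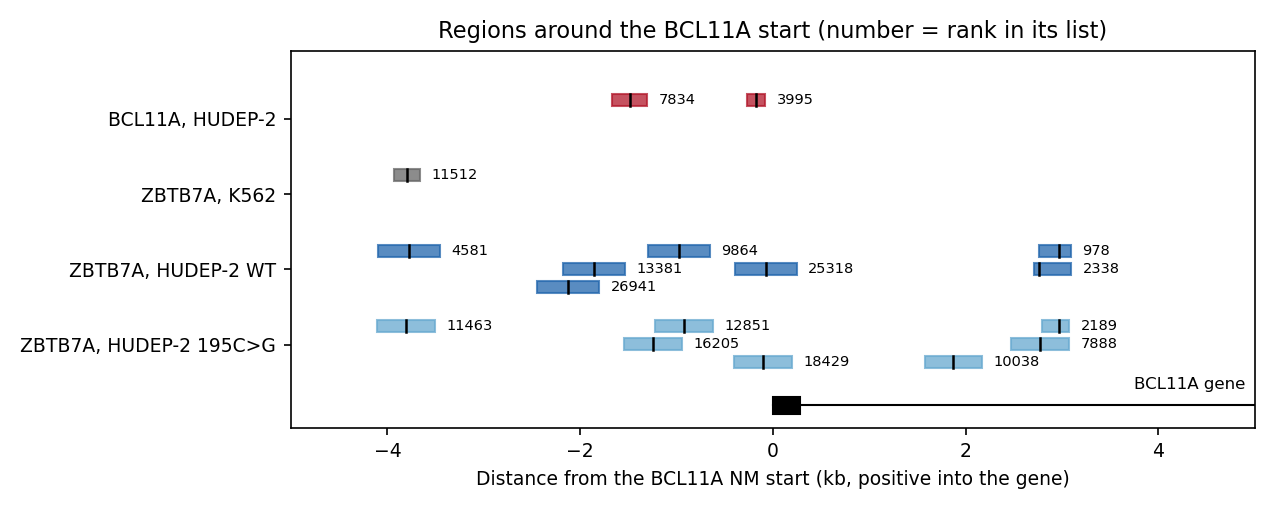
Regions from 5 kb upstream to 5 kb downstream of the BCL11A start, drawn to scale in kb, with 1 row per list. Bars are regions, black ticks their summits or midpoints and numbers their ranks, and the black box is the first exon. The best ranks, 978 in WT and 2189 in 195C>G, lie near 3 kb in the first intron, where BCL11A and K562 have no region.

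Downstream of the gene the only place lay at 113.572 to 113.826 kb from the start. WT had a region at chr2:60439358-60440001 (signal 51.1, rank 5659) and an overlapping one at chr2:60439604-60440247 (signal 19.7, rank 25718). The 195C>G region, chr2:60439372-60439971, had a signal of 45.9 and rank 7332, with its summit 8 bp from that of the stronger WT region. In RefSeq this is the start of LOC124906010, an uncharacterised gene annotated as protein-coding whose start lies 11.3 kb below the end of BCL11A. WT regions held all 250 bases of its printed window and the 195C>G region 152. No region of any list lay at the other annotated genes within 100 kb downstream: MIR4432, a microRNA gene, its host gene MIR4432HG, LOC102724142 and the pseudogene RNU1-32P. None lay at the pseudogene RN7SL361P, upstream of the BCL11A start. The next regions farther downstream were more than 1 Mb away in every list, the closest 1269 kb below the gene in WT.

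Overlap between the lists was counted with a minimum of 1 bp. All 3 BCL11A regions were overlapped by a WT region (100%, Clopper-Pearson 95% interval 29.2 to 100%), against 57.5% of the whole BCL11A list. All 3 were overlapped by a 195C>G region, against 39.6%, and 0 of 3 by a K562 region, against 31.9%. With 3 regions the interval for K562 reaches 70.8%. The 1 K562 region was overlapped in WT (62.5% of that list) and in 195C>G (46.2%).

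A 195C>G region overlapped 11 of the 13 WT regions (84.6%, interval 54.6 to 98.1%), against 54.3% of the whole WT list. The shares found for WT regions of like rank, taken by rank decile, would have given 8.63 of 13. The WT regions without a 195C>G overlap were those at +58 and at 2.121 kb upstream, at ranks 21439 and 26941. With the stronger 50% of both lists 4 of 8 were overlapped. BCL11A regions overlapped 3 of 13 (23.1%) WT regions, against 25.0% of that list, and K562 regions 1 of 13 (7.69%), against 35.9%. Of the 195C>G regions, BCL11A overlapped 3 of 10, against 29.3%, and K562 1 of 10, against 45.3%. The regions of a place are not independent, so these intervals cover counting error only and the shares are descriptions.

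The number of regions in the gene body was set beside that of other protein-coding genes. BCL11A held 6 WT regions, and 2.46% of 19343 genes held more. It held 5 regions of 195C>G, and 1.02% held more. It held 1 BCL11A region, where 26.7% of genes held at least 1, and 0 K562 regions, where 30.8% held at least 1. At least 1 region was found in 45.4% of gene bodies in WT and in 30.1% in 195C>G. Long genes hold more regions: among genes of 50 to 200 kb, 4.54% held more than 6 in WT and 1.65% more than 5 in 195C>G, and medians were 1 and 0. Regions that overlap were kept apart in all these counts. With 100 kb added on each side the counts became 13 in WT, where 84.3% of genes had at least 1 and 18.2% more than 13. They became 10 in 195C>G (74.6% at least 1, 9.12% more than 10), 3 for BCL11A (71.2% and 30.8%) and 1 for K562 (77.2% and 62.4%). A gene body with regions in all 3 HUDEP-2 lists and none in K562, as at BCL11A, was found for 4.65% of genes. Among genes of 50 to 200 kb the share was 6.97%.

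The 5 genes of 50 to 200 kb whose counts were nearest to those of BCL11A over the 4 lists, by the sum of absolute differences, were found next. TOP1, which encodes DNA topoisomerase I, had the same counts (6 WT, 5 of 195C>G, 1 BCL11A and 0 K562), and best ranks of 8889 in WT, 2218 in 195C>G and 3065 for BCL11A. PAQR5, a membrane progesterone receptor gene, and SNX24, a sorting nexin gene, differed by 1 region in all. ITPKB, an inositol trisphosphate kinase gene, and PPARA, a nuclear receptor gene, differed by 2, a distance shared by 10 genes. Counting 10 kb beside each gene as well gave 5 other genes, so this likeness depends on the limits of the gene.

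The paralog BCL11B, a lymphoid and neural factor gene of 102 kb, had no region in its gene body in any list. Of 11 genes listed as DNA-binding proteins or their partners in the control of BCL11A, 9 had a WT region in the gene body, against 45.4% of all genes. By the same count 9 had one of 195C>G (30.1% of all genes), 10 one of K562 (30.8%) and 9 one of BCL11A (26.7%). In all 4 lists 7 had one, against 10.4% of all genes. These 7 were KLF1, an activator of BCL11A, MYB, TAL1, LMO2, LDB1, RUNX1 and ZBTB7A. ZBTB7A, itself a protein pulled down here, was counted among the 11, and control of BCL11A by it was not tested. LDB1, which encodes the protein that holds enhancers and promoters together in erythroid cells, stood at rank 8 in WT, 23 in 195C>G, 80 in K562 and 5603 for BCL11A. LMO2, its bridging partner, stood at 96 in WT, 158 in 195C>G, 8801 in K562 and 1434 for BCL11A. For TAL1 the best ranks were 3776 in WT, 10975 in 195C>G, 1742 in K562 and 3912 for BCL11A, and for KLF1 they were 6585, 9729, 1146 and 2796 in the same order.

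For MYB, a progenitor factor gene, the same ranks were 10363, 13920, 7631 and 6732. RUNX1 had 8 WT, 6 195C>G, 8 K562 and 7 BCL11A regions over its 261 kb, and ZBTB7A had 15, 8, 2 and 2 over 23.6 kb. HIC2, a repressor of BCL11A in fetal-stage cells, had 1 BCL11A region, at rank 11443, and none of ZBTB7A in its gene body.

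Of 5 genes listed for roles in stress signals, RNA or protein turnover, 3 had regions in all 4 lists, against 10.4% of all genes. Whether each of the 5 acts on BCL11A was not tested. WT and K562 each had regions in 4 of the 5, against 45.4% and 30.8% of all genes. The 195C>G and BCL11A lists each had regions in 3, against 30.1% and 26.7%. LIN28B had 2 WT regions and 1 of K562, and SPOP had none in any list. EIF2AK1, the heme-regulated kinase gene, had best ranks of 9544 in WT, 18351 in 195C>G, 4159 in K562 and 8079 for BCL11A. IGF2BP1, which encodes a fetal RNA-binding protein, had ranks of 2950, 16248, 2071 and 8636 in the same order. IGF2BP3, of the same family, had 10330, 9690, 6952 and 4418.

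Of 18 genes of proteins that bind BCL11A, 5 had regions in all 4 lists (10.4% of all genes): ZFPM1, CHD3, MTA2, GATAD2A and RCOR1. By list, 10 of the 18 had a region in WT (45.4% of all genes) and 10 in 195C>G (30.1%). In K562 10 had one (30.8%) and in the BCL11A list 9 (26.7%), and RBBP4 was the only one with none in any. ZFPM1, which encodes the GATA1 cofactor FOG1, held 19 BCL11A regions, with rank 1 of that list, and had best ranks of 14 in WT, 6 in 195C>G and 61 in K562. GATAD2A, a NuRD subunit gene, had ranks of 1796, 2405, 5120 and 976 for WT, 195C>G, K562 and BCL11A. In the same order CHD3, a NuRD remodeller gene, had 4287, 9183, 7753 and 3236. MTA2, another NuRD subunit gene, had 15319, 9887, 7094 and 10553, and RCOR1, a CoREST corepressor gene, had 4123, 3142, 7408 and 11644.

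A further 6 protein-coding genes were listed from the wider surroundings of BCL11A on chromosome 2, all outside the 100 kb limits. Of these, VRK2 alone had regions in all 4 lists, a share near the 10.4% of all genes. Its best ranks were 7791 in WT, 17483 in 195C>G, 15956 in K562 and 4065 for BCL11A. WT had regions in 5 of the 6 (45.4% of all genes), K562 in 3 (30.8%), BCL11A in 2 (26.7%) and 195C>G in 1 (30.1%). PUS10 and PEX13 shared 1 WT region, at rank 22221, which was counted for both. PAPOLG had no region in any list. Over the 41 listed genes 16 had regions in all 4 lists, against 10.4% of all genes, and 4 had none, against 42.6% of all genes. The listed genes were not matched to the others for length or activity.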

How the data were processed

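Chromatin from HUDEP-2 and K562 cells was sequenced in 16 libraries (8 ChIP, 8 control, the latter titled input and labelled with an IgG antibody). Per the submitters' processing notes, Trimmomatic 0.3.2, Bowtie2 2.2.9, Bowtie, Picard and bedtools were used with GRCh38/hg38. Per the file names, the deposited BCL11A and K562 lists are optimal IDR peaks (regions ranked alike in replicates) and the lists for WT and for 195C>G come from SPP on hg38 with a modified chromosome 11. Chromosome 2 is on the hg38 scale in all lists. Each BCL11A region carries a deposited score, whose scale no source used here gives. Each WT and 195C>G region carries a signal deposited by the authors, a deposited −log10 false discovery rate and its summit.

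Regions were limited to standard chromosomes, identical regions were counted once, and ranks follow the value, or file order in K562, a choice made after seeing the data. Regions that overlap within a list were kept apart. Most widths are set by the peak caller: 11 of 13 WT regions at the gene were 644 bp and 9 of 10 of 195C>G were 600 bp. Chromosome 11 was left out of overlaps between builds, and chromosome 11 genes took RefSeq positions for the BCL11A and K562 lists. Distal means more than 1 kb from any NM start of the deposited annotation. A named enhancer site took regions within 1 kb. Shares carry Clopper-Pearson 95% intervals (scipy 1.17.1, pandas 2.3.3). The overlap, merging and counting steps were tested on simulated regions. All coordinates are 1-based.

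The members, gene lists and enhancer sites were chosen with earlier results of these data known. Genes were named when listed and bound in the gene body in all 4 lists, or as the paralog BCL11B, or among the 5 genes of nearest counts, or when they overlap the 100 kb limits. HIC2, LIN28B, SPOP, RBBP4, PAPOLG, PUS10 and PEX13 were named after their values were seen. The motifs were chosen after the windows were seen. Alternatives varied the limits, overlap, merging and list length.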

Additional observations from a re-analysis of the deposited data

How the results depend on the processing

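Of 52 alternatives over 23 results, 36 stayed near the value given, a count within 1.5 times or a share or rank within its counting interval. With the gene body alone the regions at BCL11A numbered 6 in WT, 5 in 195C>G, 0 in K562 and 1 in the BCL11A list, since fewer bases were counted. With the stronger 50% of each list (for K562 the first 50% of the file, not known to be the stronger) they numbered 8 in WT, 4 in 195C>G and 0 in K562, and between 50 and 65 kb 1 remained in WT and 0 in 195C>G, so the 195C>G region at +55 depends on the weaker part of that list. With overlapping regions merged the best ranks there were 2540 in the BCL11A list, 3532 in WT and 13405 in 195C>G, out of shorter lists. With the stronger 50% of both lists a 195C>G region overlapped 50% of WT regions. With reciprocal overlap of at least 50%, 0% of the K562 regions and 0% of the BCL11A regions were overlapped by WT, where the K562 region and 2 of the 3 BCL11A regions were shorter than 50% of the WT region. With 10 kb beside each gene 0 of the 5 genes of nearest counts were shared. Counting from the most upstream RefSeq start, 426 bp higher and chosen after seeing the data, kept the count within 1 kb within 1.5 times in each list. The share of K562 regions overlapped by WT had no value for the stronger 50% or the gene body, as no K562 region was left. No paired analysis was possible because the deposited lists pool replicates or come from 1 library each, and leaving out a replicate was not run for the same reason. Depth is unknown, so a place without a region may still be bound.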
